A study of Mus musculus with 12 samples.

Results

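Levels of Slc6a19os, Ctxn3, Angptl7, Prok1, A4gnt and Rlim were followed through 12 mouse kidney RNA-seq libraries. These 6 genes, of 55487 rows in the count table, were chosen by their read counts in injured knockout kidneys, where they were listed among the largest rises or falls, so their values in that group are given as a description and were not tested. Control mice carried floxed alleles of ALR (gene symbol Gfer) without Cre and are labelled WT, and PT-KO mice carried ALR flox/flox with Ggt1-Cre, a driver active in the proximal tubule. All mice were 6 to 8 weeks old on a C57BL/6 background, and the sampled tissue is given as kidney cortex. Sham-operated controls (Ctrl), sham-operated PT-KO mice, and both genotypes after bilateral ischemia of 22 min and reperfusion over 24 h (injured controls, Ctrl+I/R in the plots, and injured PT-KO kidneys, PT-KO+I/R) gave 3 libraries each, every library from 1 mouse. The comparison asked what loss of ALR in the proximal tubule changes in the kidney at rest and after injury. Injured controls were the likely reference when the 6 genes were chosen, so their comparison with Ctrl is not independent of the choice.

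ALR is a sulfhydryl oxidase of the mitochondrial intermembrane space that takes part in the import of proteins. Ischemia followed by reperfusion damages above all the proximal tubule, the segment that reclaims amino acids, glucose and phosphate from the filtrate. The 6 genes do not form a pathway. Slc6a19os is a long non-coding RNA on the strand opposite Slc6a19, the gene of a neutral amino acid transporter of the tubule brush border. Ctxn3 encodes a small membrane protein of the cortexin family, and Angptl7 a secreted protein related to the angiopoietins. Prok1 encodes prokineticin 1, a secreted peptide that acts on endothelial cells through G protein-coupled receptors. A4gnt encodes the glycosyltransferase that caps mucin O-glycans with alpha-1,4-linked N-acetylglucosamine, a structure best known from the gastric gland mucosa. Rlim encodes an X-linked ubiquitin ligase known for its part in X inactivation.

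RefSeq promoter sequences on GRCm38.p6 were found for 5 of the 6 genes. They are shown because 4 of these genes went to opposite extremes in injured PT-KO kidneys while the fifth, Rlim, moved little by comparison. Each sequence is the 250 bases before the RefSeq start, 5′ to 3′ on the strand of the gene, and capitals mark every match to one of 8 short motifs on either strand.
Slc6a19os: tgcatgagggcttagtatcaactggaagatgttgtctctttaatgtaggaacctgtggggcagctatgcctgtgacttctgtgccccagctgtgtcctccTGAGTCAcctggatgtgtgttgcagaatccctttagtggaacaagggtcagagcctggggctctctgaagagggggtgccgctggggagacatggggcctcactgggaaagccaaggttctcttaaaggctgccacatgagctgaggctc
Angptl7: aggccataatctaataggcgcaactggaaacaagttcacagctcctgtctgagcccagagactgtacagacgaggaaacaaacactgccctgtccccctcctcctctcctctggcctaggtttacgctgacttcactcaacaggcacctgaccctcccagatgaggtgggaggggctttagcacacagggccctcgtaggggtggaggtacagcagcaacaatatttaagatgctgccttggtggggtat
Prok1: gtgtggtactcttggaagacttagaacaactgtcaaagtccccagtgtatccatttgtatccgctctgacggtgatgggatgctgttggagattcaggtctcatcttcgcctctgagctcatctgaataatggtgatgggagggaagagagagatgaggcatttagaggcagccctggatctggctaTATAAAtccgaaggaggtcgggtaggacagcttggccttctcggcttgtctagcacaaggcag
A4gnt: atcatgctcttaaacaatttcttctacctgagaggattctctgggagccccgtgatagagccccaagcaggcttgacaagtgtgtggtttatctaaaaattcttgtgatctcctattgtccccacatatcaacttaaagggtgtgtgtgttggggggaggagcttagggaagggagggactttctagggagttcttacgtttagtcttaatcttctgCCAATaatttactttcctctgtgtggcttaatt
Rlim: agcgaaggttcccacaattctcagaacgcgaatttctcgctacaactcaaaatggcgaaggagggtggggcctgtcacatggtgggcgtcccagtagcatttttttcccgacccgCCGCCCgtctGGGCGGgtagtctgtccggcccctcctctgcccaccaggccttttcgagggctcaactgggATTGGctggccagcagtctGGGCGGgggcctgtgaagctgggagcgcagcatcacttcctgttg

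The windows lie at chr13:73699705-73699954 (plus strand, Slc6a19os), chr4:148500463-148500712 (minus strand, Angptl7), chr3:107239708-107239957 (minus strand, Prok1), chr9:99612252-99612501 (plus strand, A4gnt) and chrX:103981286-103981535 (minus strand, Rlim). The search covered the TATA box TATAAA, the CCAAT box CCAAT, the GC box GGGCGG, the AP-1 site TGANTCA, the nuclear receptor half-site AGGTCA, the HNF1 half-site GTTAAT, the HIF core ACGTG and the antioxidant response element core TGACNNNGC. Slc6a19os held an AP-1 match 150 bases before its RefSeq start, which lies 129 bases inside the GENCODE span of the gene given below, a motif found in 6.75% of 32851 RefSeq promoter windows of the same length. Prok1 held a TATA box, present in 12.4% of windows, and a second RefSeq start of Prok1 held none of the 8 motifs. A4gnt held a CCAAT box, present in 33.8%. Rlim held a CCAAT box and 3 GC boxes, and a GC box occurs in 32.7% of windows. The window of Angptl7 held none of the 8 motifs. The nuclear receptor half-site (14% of all windows), the HNF1 half-site (6.43%), the HIF core (16.6%) and the antioxidant response core (10.2%) were in none of the windows shown. The Rlim window had the most CpG dinucleotides, 15 against 1 in Slc6a19os, 4 in Angptl7, 6 in Prok1 and 2 in A4gnt, and the median over all windows was 6. Neither the rising nor the falling pair shared a motif.

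Library totals lay between 12165089 and 23123693 counts. Gfer, the targeted gene, was read at 12.7, 11.3 and 14.5 CPM (counts scaled to library size, with TMM factors) in Ctrl, at 10.01, 17.1 and 15.1 in PT-KO, at 15.3, 20.0 and 17.7 in injured controls and at 21.3, 22.7 and 21.4 in injured PT-KO kidneys. It was not lower in the libraries labelled PT-KO than in controls (log2 fold change 0.13, SE 0.20, edgeR adjusted p = 0.761), so Gfer counts do not check the genotype labels, and counts from exons outside the deleted part or from other cells were not separated. The names PT-KO and injured PT-KO kidneys stand below for the libraries so labelled. Ctrl libraries 1 and 2 carried 22402 and 19755 Xist counts and no Y-linked count, whereas each other library had at most 11 Xist counts and at least 3109 Y-linked counts. The control comparisons therefore mix sex with condition. Markers of the proximal tubule were strongly read in every group, with a summed level of 11567 CPM or more over 8 genes, and of 2275 CPM or more without Kap, the most abundant of them. Values per group are mean ± SD with n = 3, and tests measure the spread between these mice.

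Slc6a19os is an antisense gene at chr13:73699826-73709853 on the plus strand of GRCm38 (ENSMUSG00000021566). In Ctrl it had 0, 3 and 2 counts, in PT-KO 2, 7 and 0 counts, and in injured controls 6, 23 and 6 counts. The injured PT-KO libraries had 369, 800 and 613 counts, or 31.0, 35.5 and 39.2 CPM. The RNA was thus close to the floor of 3 counts, 0.133 to 0.252 CPM in these libraries, in both sham groups and clearly read in 1 group only. Means were 0.0980 ± 0.0921 CPM in Ctrl, 0.168 ± 0.192 in PT-KO, 0.618 ± 0.509 in injured controls and 35.2 ± 4.10 in injured PT-KO kidneys. The log2 fold change of injured PT-KO kidneys over injured controls was 5.84, and between 5.42 and 6.77 when each library was left out in turn, highest without injured control library 2. By pooled counts the level was 58.1 times that of injured controls (95% counting interval 41.6 to 83.7). Counting intervals here cover counting error and not the spread between mice. All 3 injured control libraries lay above all 3 Ctrl libraries, yet the counts were too low to enter the test of either control comparison.

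Ctxn3, at chr18:57468516-57478133 on the plus strand (ENSMUSG00000069372), was read at 74.4, 95.2 and 66.7 CPM in injured PT-KO kidneys against 0.982, 2.09 and 1.59 CPM in injured controls. In PT-KO it was 3.17, 13.0 and 3.70 CPM, and in Ctrl 0.501, 0.426 and 3.45 CPM. The injured PT-KO libraries stood apart from all others, PT-KO library 2 was high for its group, and Ctrl library 3 was high for its own. The log2 fold change was 5.69 over injured controls and 3.55 over PT-KO, and the latter was 4.53 without PT-KO library 2. Between PT-KO and Ctrl the difference was 2.18 (SE 0.83) with an edgeR adjusted p of 0.26, and the groups overlapped. Without Ctrl library 3 it was 3.81 (adjusted p = 0.0142), but Ctrl then held only Xist-carrying libraries, so sex and genotype cannot be told apart there. Without both Ctrl libraries that carry Xist counts it was 0.96. In that fit Ctrl library 3 alone stands for Ctrl and is assumed to vary like the other groups, wherever it is given below, so its p-values rest on an arm of 1 library. In injured controls the mean of 1.56 ± 0.555 CPM was next to the 1.46 ± 1.73 CPM of Ctrl, a log2 difference of 0.08 (SE 0.77, adjusted p = 0.948) that turned to -1.18 without those Xist-carrying libraries.

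Angptl7 lies at chr4:148495183-148500460 on the minus strand (ENSMUSG00000028989), inside an intron of Mtor. Its level was 7.96, 8.16 and 12.4 CPM in Ctrl, and 3.53, 3.35 and 2.49 CPM in injured controls. In PT-KO it was 17.5, 40.0 and 23.7 CPM, and in injured PT-KO kidneys 158, 100.1 and 95.5 CPM. No 2 of the 4 groups overlapped. I/R in control kidneys thus went with a lower level and I/R in PT-KO kidneys with a higher one. The fall in injured controls against Ctrl passed the test, at -1.60 on the log2 scale (SE 0.25, edgeR adjusted p = 0.0114). A low level in injured controls, the likely reference, favours the choice of a rising gene, so this test is not independent of the choice. The difference of PT-KO from Ctrl, 1.51 (SE 0.31), had an unadjusted p of 0.00118 and an adjusted p of 0.183, and passed with DESeq2 (adjusted p = 7.8e-05). Against Ctrl library 3 alone, without both Xist-carrying libraries, the fall was -1.99 (adjusted p = 0.032) and the difference of PT-KO from Ctrl 1.13 (SE 0.45), which did not pass. The log2 fold change of injured PT-KO kidneys was 5.24 over injured controls and 2.13 over PT-KO. Exact permutation of 3 against 3 libraries gave p = 0.1 for both control comparisons, the smallest this design allows.

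Prok1 is at chr3:107232797-107239707 on the minus strand (ENSMUSG00000070368). The 3 Ctrl libraries read 16.8, 12.6 and 25.7 CPM, and the 3 PT-KO libraries 19.1, 42.3 and 25.5 CPM. Injured controls gave 13.0, 8.31 and 20.8 CPM. In injured PT-KO kidneys 2, 5 and 4 counts remained, or 0.168, 0.222 and 0.256 CPM. The first 3 groups overlapped in the order PT-KO, Ctrl, injured controls, and the injured PT-KO libraries were far below them. The log2 fold change was -5.95 against injured controls and -6.99 against PT-KO. By pooled counts the injured control level was 61.9 times that of injured PT-KO kidneys (95% counting interval 34.4 to 124). Prok1 did not pass the test in PT-KO against Ctrl (0.65, SE 0.32, adjusted p = 0.343) or in injured controls against Ctrl (-0.39, SE 0.36, adjusted p = 0.463).

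A4gnt, at chr9:99612502-99622367 on the plus strand (ENSMUSG00000037953), gave 15.7, 14.1 and 20.7 CPM in Ctrl and 18.8, 18.2 and 15.9 CPM in PT-KO. In injured controls it gave 6.21, 2.98 and 11.5 CPM. The injured PT-KO libraries held 0, 1 and 3 counts, against 258 to 337 counts in PT-KO, and the library with 0 counts allows up to 0.252 CPM. Both sham groups were alike in level, injured controls lay below them without overlap, and injured PT-KO kidneys were at the floor. Since 4 counts carry the last value, the ratio is broad: injured controls were 82.5 times as high by pooled counts (95% counting interval 32.0 to 305). The difference of injured controls from Ctrl was -1.30 on the log2 scale (SE 0.43) and missed the threshold (adjusted p = 0.0691). It passed with DESeq2 (adjusted p = 0.0122) and without injured control library 4 (-1.86, adjusted p = 0.0135). It was -0.92 (adjusted p = 0.0894) without injured control library 2, and -1.61 (adjusted p = 0.073) against Ctrl library 3 alone. The sham groups differed by 0.06 (SE 0.15, adjusted p = 0.866).

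Rlim, at chrX:103957163-103981284 on the minus strand (ENSMUSG00000056537), went against the label of extreme responder. Its levels were 66.0, 72.2 and 72.3 CPM in Ctrl, 73.5, 80.4 and 82.4 CPM in PT-KO, and 83.2, 98.8 and 72.6 CPM in injured controls. In injured PT-KO kidneys they were 165, 192 and 224 CPM. The difference was even among mice but moderate, with a log2 fold change of 1.21 over injured controls and 1.31 over PT-KO. It ranked 839 from the top of 15281 genes in the first comparison, where Slc6a19os ranked 5, Ctxn3 6 and Angptl7 13 from the top, and A4gnt 14 and Prok1 19 from the bottom. Against PT-KO the same genes ranked 30, 211 and 576 from the top of 15155, and 10 and 18 from the bottom. Rlim did not pass the test in PT-KO against Ctrl (0.16, SE 0.08, adjusted p = 0.349) or in injured controls against Ctrl (0.27, SE 0.13, adjusted p = 0.162). The libraries did not overlap in either, but by narrow margins: the highest Ctrl library had 72.3 CPM, the lowest PT-KO library 73.5 and the lowest injured control 72.6. With total count scaling PT-KO, at 70.3 to 77.2 CPM, overlapped with Ctrl, at 68.1 to 76.6 CPM.

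**Figure D1:**
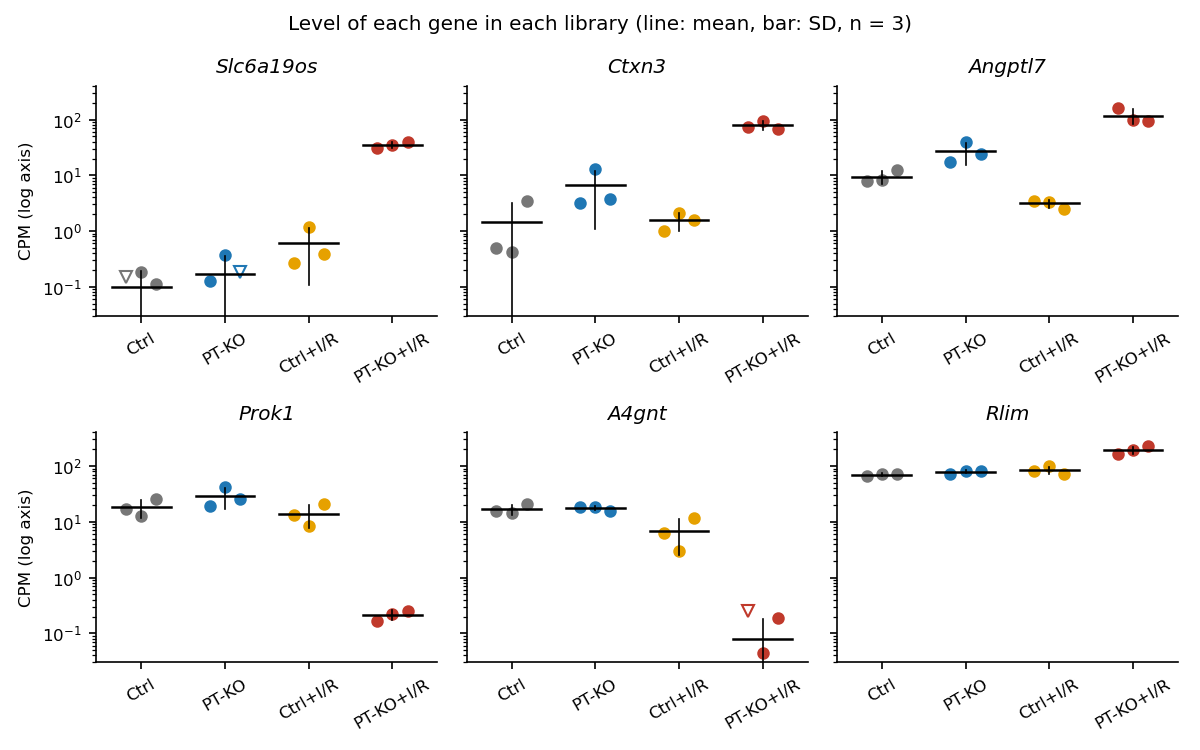
CPM on a log axis in each library of the 4 groups for the 6 genes, with the mean as a line and the SD as a bar, cut off at the lower end of the axis; open triangles stand at the level of 3 counts for libraries with 0 counts. Slc6a19os, Ctxn3, Angptl7 and Rlim are highest in injured PT-KO kidneys, whereas Prok1 and A4gnt are at 5 counts or fewer per library there.

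Over the 6 genes, injured PT-KO kidneys did not overlap with injured controls in 6 of 6, where 58.6% of all genes did not overlap, and not with PT-KO in 6 of 6, where 70.7% did not. The choice of genes used these libraries, so nothing is read from those counts. In PT-KO against Ctrl 0 of 5 tested genes were called, 2 had an unadjusted p under 0.05, and DESeq2 called 1. The background was 0% of 15291 genes with edgeR, with 2573 at an unadjusted p under 0.05 and 458 called by DESeq2. The libraries of PT-KO and Ctrl did not overlap for 2 of 6 genes, Angptl7 and Rlim, against 21% of all tested genes, and Rlim overlapped with total count scaling. Injured controls were the likely reference of the choice. Against Ctrl they gave 1 call among 5 tested genes, Angptl7, beside 19.4% of all genes called and 7.97% called lower. In this comparison 4 of 6 genes did not overlap, against 43.6% of all tested genes. They were Angptl7, A4gnt, Slc6a19os, which was too low to be tested, and Rlim, by 72.6 against 72.3 CPM. All 4 comparisons share groups.

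**Figure D2:**
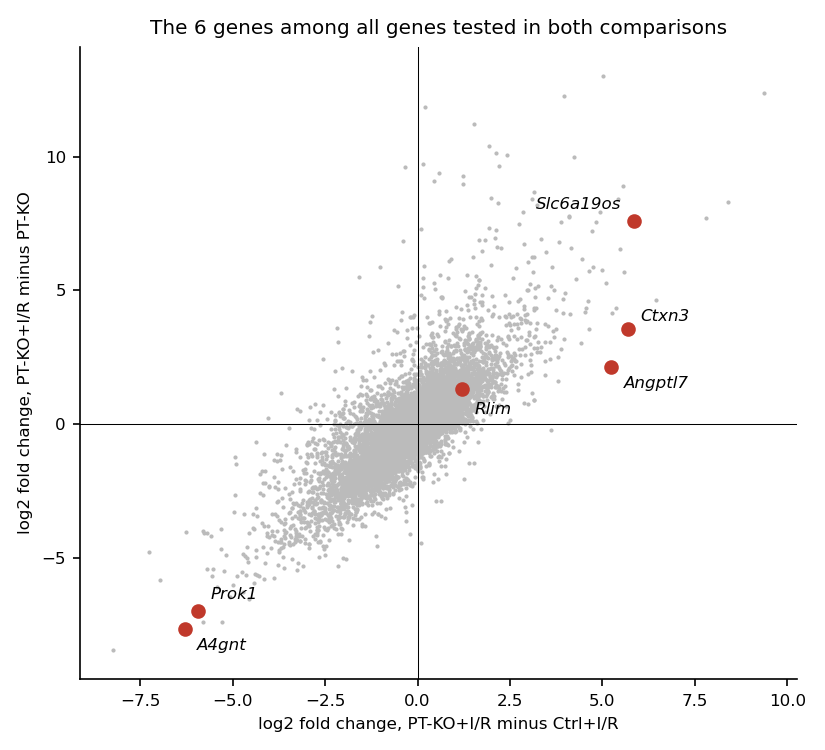
Log2 fold change of injured PT-KO kidneys over injured controls (x axis) and over PT-KO (y axis) for all genes tested in both, with the 6 genes in red. Both axes use the same injured PT-KO libraries, and Rlim sits inside the cloud at 1.21 and 1.31 while the other 5 genes sit at its ends on the x axis. On the y axis Ctxn3 at 3.55 and Angptl7 at 2.13 lie less far out.

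Expressed per kilobase of exon, Rlim had the highest mean level in Ctrl at 7.87 CPM per kb, ahead of A4gnt at 6.11, Prok1 at 5.67 and Angptl7 at 4.40. Ctxn3 at 0.909 and Slc6a19os at 0.0591 CPM per kb were the lowest. In injured PT-KO kidneys the order was Angptl7 at 54.7, Ctxn3 at 49.1, Rlim at 21.7, Slc6a19os at 21.2, Prok1 at 0.0664 and A4gnt at 0.0286 CPM per kb. Slc6a19os thus reached the level per length of Rlim in injured PT-KO kidneys.

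**Figure D3:**
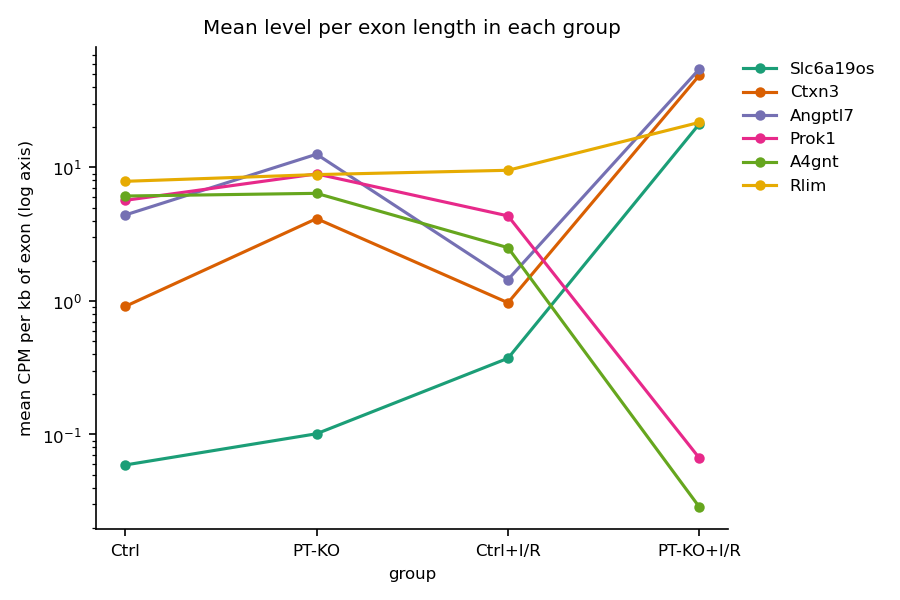
Mean CPM per kb of exon on a log axis in the 4 groups, 1 line for each gene and 3 libraries behind each point. Slc6a19os climbs from 0.0591 in Ctrl to 21.2 in injured PT-KO kidneys, while A4gnt drops from 6.11 to 0.0286.

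The genome neighbours were read to see how far each change reached. Slc6a19os shares 5040 bases of its span with Slc6a19 on the opposite strand, though no exon bases. The sources used here do not say whether counting used strand, so unspliced Slc6a19 RNA cannot be told apart from it. Slc6a19 itself was 719 ± 14.5 CPM in Ctrl, 580 ± 41.3 in PT-KO, 232 ± 82.1 in injured controls and 346 ± 30.8 in injured PT-KO kidneys. It fell with I/R in controls by 1.63 on the log2 scale (SE 0.27, adjusted p = 0.0126 with edgeR) and likewise in PT-KO kidneys (-0.73, SE 0.10, adjusted p = 1.4e-04), and its difference between the injured groups was 0.59 (SE 0.26, adjusted p = 0.0915). The call in controls was lost without Ctrl library 1 or 2 (adjusted p up to 0.0554). Per 100 counts of Slc6a19 there were 0.0128 counts of Slc6a19os in Ctrl, 0.0308 in PT-KO, 0.267 in injured controls and 10.5 in injured PT-KO kidneys, with 8.15 to 11.6 in the single libraries of the last group. Counts assigned to Slc6a19os were therefore high in a group where Slc6a19 was below the sham level. On the other side, Slc12a7, a potassium-chloride cotransporter gene, fell in injured PT-KO kidneys against injured controls (-0.66, SE 0.10, adjusted p = 0.00184).

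Mtor, the kinase gene that contains Angptl7 on the opposite strand, was 252 ± 41.0 CPM in Ctrl, 389 ± 103 in PT-KO, 166 ± 17.96 in injured controls and 224 ± 10.4 in injured PT-KO kidneys. It rose in injured PT-KO kidneys against injured controls by 0.45 (SE 0.11, adjusted p = 0.0138), a call lost without injured control library 1 or injured PT-KO library 3 (adjusted p up to 0.0606), and fell against PT-KO (-0.79, SE 0.16, adjusted p = 0.00147). Angptl7 gave 3.76 counts per 100 of Mtor in Ctrl, 7.03 in PT-KO, 1.94 in injured controls and 49.9 in injured PT-KO kidneys. The host gene had the order PT-KO, Ctrl, injured PT-KO kidneys, injured controls, whereas Angptl7 was highest in injured PT-KO kidneys. With the strand setting not given, unspliced Mtor RNA cannot be told apart from Angptl7 either.

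Cym, the gene of chymosin, a digestive aspartic protease, lies 11065 bases from Prok1 on the same strand. It was low, with 14, 6 and 26 counts in Ctrl, 24, 42 and 24 in PT-KO, and 24, 11 and 14 in injured controls. In injured PT-KO kidneys 0, 1 and 0 counts remained. Cym fell against injured controls (-5.00, SE 0.78, edgeR adjusted p = 0.0019) and against PT-KO (-6.01, SE 0.67, adjusted p = 2.9e-05), and these fitted values rest on a single count in the injured PT-KO group. Per 100 counts of Prok1 there were 4.58 counts of Cym in Ctrl, 6 in PT-KO and 6.31 in injured controls, with overlapping counting intervals (3.33 to 6.16, 4.80 to 7.43 and 4.63 to 8.42). Lamtor5, on the other side of Prok1, fell by less (-0.90, SE 0.22, adjusted p = 0.0129), with adjusted p up to 0.0563 without injured PT-KO library 3 or 4. Prok1 also shares 1146 exon bases with A630076J17Rik on the opposite strand, which had 0 counts in every library.

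Around A4gnt, Dbr1, which encodes the lariat debranching enzyme, rose in injured PT-KO kidneys against injured controls (0.50, SE 0.12, adjusted p = 0.0124) and Dzip1l, a gene of ciliary function, fell (-0.43, SE 0.10, adjusted p = 0.00823). Next to Rlim, Nexmif (0.13, SE 0.29, adjusted p = 0.733) did not pass the test. Prrc1 beside Ctxn3 rose by 0.34 (SE 0.09, adjusted p = 0.0136). Ccdc192, the coding gene on the other side of Ctxn3 and on the same strand, 55647 bases away, had 7, 10 and 8 counts in injured PT-KO kidneys and 0, 1 and 0 in injured controls. In Ctrl it had 0, 2 and 0 counts and in PT-KO none, so its injured PT-KO libraries lay above all others, as those of Ctxn3 did, at counts too low for the test. Ctxn3 lies within the span of the antisense gene 4930511M06Rik, whose mean was 0.386 CPM in injured PT-KO kidneys and 0.935 CPM in injured controls, too low for the test.

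**Figure D4:**
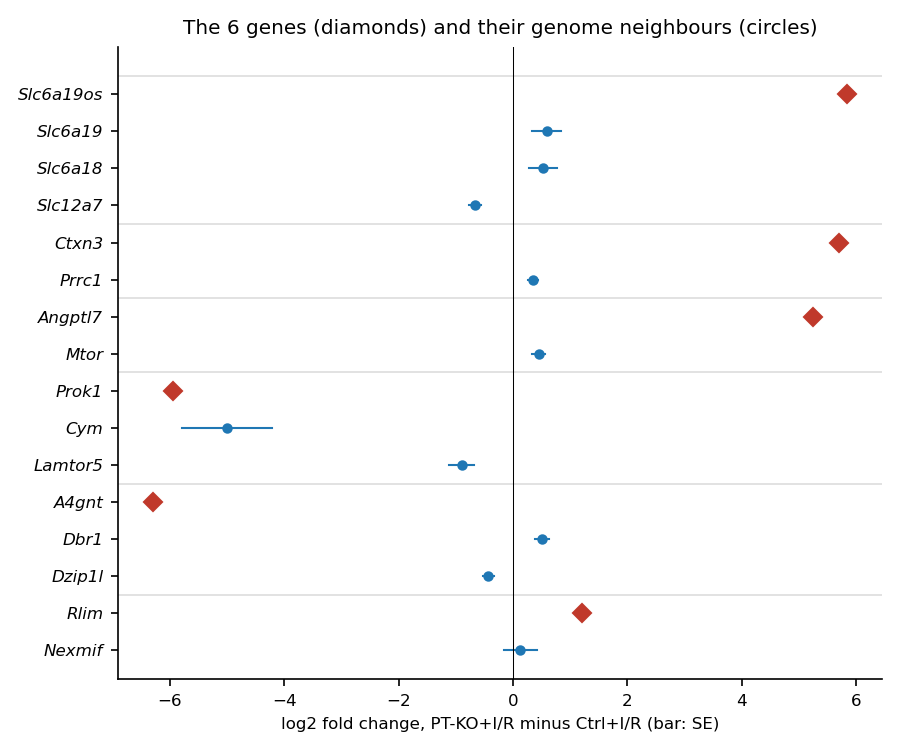
Log2 fold change of injured PT-KO kidneys over injured controls for the 6 genes (diamonds, no error drawn because these values chose them) and their overlapping or nearest genes that were tested and are named in the text (circles, bars are SE). Cym at -5.00 is the only neighbour drawn beyond 1 log2 unit from 0.

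Relatives and partners of the 6 genes were taken as 6 lists of 62 genes, of which 48 passed the filter on low counts in each comparison. In PT-KO against Ctrl 0 of 48 were called by edgeR, with 10 at an unadjusted p under 0.05 and 5 called by DESeq2. In injured controls against Ctrl 3 rose and 12 fell, against 11.4% and 7.97% of all genes, with a median log2 fold change of -0.20 beside -0.01 for all genes. Without either one of the Xist-carrying Ctrl libraries 0 were called. The fit with Ctrl library 3 alone called 8, which is not on a par with these counts because its spread comes from the other groups. In injured PT-KO kidneys against injured controls 24 of 48 were called against 46.9% of all genes, 8 higher and 16 lower (22.5% and 24.4% of all genes), with a median of -0.22 beside -0.01. Against PT-KO 39 of 48 were called, where 65.5% of all genes were, with 12 higher and 27 lower (32.9% and 32.7%) and a median of -0.54 beside 0.01. In bulk tissue, fewer cells of a type and less RNA per cell cannot be told apart.

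Among Slc6a19, its relatives and the transcription factor genes listed with them, 3 of 8 tested genes fell in injured PT-KO kidneys against injured controls and none rose. That is 37.5% called, where 46.9% of all genes were. Slc6a20b, a transporter of proline and related imino acids, fell from 138 ± 59.2 to 27.2 ± 5.29 CPM (-2.34, SE 0.34, edgeR adjusted p = 0.00134). Its relative Slc6a20a fell by 0.57 on the log2 scale (adjusted p = 0.00568). Slc6a18, the nearest coding gene below Slc6a19, was 0.52 higher (SE 0.25) and did not pass (adjusted p = 0.119), but rose against PT-KO (0.99, SE 0.20, adjusted p = 0.00138). Against PT-KO 8 of 8 were called, 7 of them lower, where 65.5% of all genes were called and 32.7% called lower.

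Of the cortexins, Ctxn2 was at or near 0 and only Ctxn1 was tested. Ctxn1 rose with I/R in controls, from 1.14 ± 0.305 to 3.44 ± 1.48 CPM (1.58, SE 0.39, adjusted p = 0.0333), and in PT-KO kidneys from 0.819 ± 0.281 to 5.95 ± 1.58 CPM (2.88, SE 0.32, adjusted p = 2.9e-05). The call in controls was lost in 5 of 6 fits that each left out a library, all but that without injured control library 4 (adjusted p up to 0.109). Between the injured groups it differed by 0.81 (SE 0.34, adjusted p = 0.0811), where Ctxn3 was 5.69 higher.

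In the angiopoietin system, leaving out Mtor, which the list also holds, 1 of 9 tested genes rose and 5 fell between the injured groups. Of all genes 22.5% rose and 24.4% fell. The riser, Angptl4, an inhibitor of lipoprotein lipase, was 46.4 ± 13.7 CPM in injured controls and 264 ± 2.19 CPM in injured PT-KO kidneys, and rose by 2.52 on the log2 scale (SE 0.22, adjusted p = 2.4e-04). Like Angptl7 it was high in all 3 injured PT-KO libraries, but in PT-KO without injury its mean of 51.8 ± 12.2 CPM was near the 47.8 ± 21.7 CPM of Ctrl. Angptl2 fell by 1.39 (SE 0.17, adjusted p = 7.4e-04). Angpt1, the agonist of the endothelial receptor Tie2, fell by 1.55 (SE 0.46, adjusted p = 0.0255), a call lost without injured control library 1 or 4 or injured PT-KO library 3 or 4 (adjusted p up to 0.0974). Tek, which encodes that receptor, fell from 43.4 ± 5.42 to 17.8 ± 3.29 CPM (-1.28, SE 0.16, adjusted p = 8.8e-04).

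Around Prok1, the receptors and the second ligand were hardly read. Prok2 and Prokr2 were at or near 0 in all groups, and Prokr1 had a mean of 0.802 CPM in Ctrl, 0.102 in PT-KO, 0.400 in injured controls and 0.0723 in injured PT-KO kidneys. In the VEGF system 4 of 10 tested genes rose and 2 fell between the injured groups, or 60% called beside 46.9% of all genes. Vegfa, the main endothelial growth factor of the kidney, fell from 149 ± 23.6 to 84.5 ± 10.7 CPM (-0.81, SE 0.15, adjusted p = 0.00378), and Vegfb fell by 0.73 (adjusted p = 0.0139, and 0.0579 without injured PT-KO library 4). Vegfc, a ligand for lymphatic endothelium, rose by 1.33 (SE 0.27, adjusted p = 0.00592), Pgf by 1.64 (SE 0.50, adjusted p = 0.0276) and the receptor gene Kdr by 0.63 (SE 0.14, adjusted p = 0.00782). The call of Pgf was lost without injured control library 1 or 4 or injured PT-KO library 3 or 4 (adjusted p up to 0.0966). The summed level of 3 endothelial markers was 177 to 199.6 CPM in injured controls and 238 to 242 CPM in injured PT-KO kidneys, and its part in these values was not tested.

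Mucin-type O-glycan genes gave 1 rise and 2 falls among 7 tested between the injured groups, or 42.9% called, near the 46.9% of all genes. Gcnt1, which makes the core 2 branch that A4gnt can extend, fell from 475 ± 95.3 to 79.6 ± 8.20 CPM (-2.57, SE 0.18, adjusted p = 1.3e-04), whereas Gcnt4, a second core 2 enzyme, rose from 7.77 ± 1.45 to 19.4 ± 1.91 CPM (1.33, SE 0.17, adjusted p = 8.2e-04). Muc20 fell by 0.89 (SE 0.22, adjusted p = 0.0125). The gastric mucins Muc5ac and Muc6 and their companion Tff2 were at or near 0 in every group, so the known substrates of A4gnt in the stomach were not detectable at this depth.

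For Rlim, the Ldb cofactors of LIM domain proteins split. Ldb1 rose by 0.60 (SE 0.11, adjusted p = 0.00398) and Ldb2 fell by 1.204 (SE 0.18, adjusted p = 0.00162). Jpx and Ftx, which lie on the X chromosome, fell by 0.68 and 0.57 (adjusted p = 0.0468 and 0.0406). The call of Jpx was lost whichever of the 6 libraries was left out (adjusted p up to 0.153), and that of Ftx without injured control library 1 or any injured PT-KO library (up to 0.127). Xist, which Rlim is known to activate, had at most 11 counts in each of the 6 injured libraries. Each of these carried at least 3109 Y-linked counts, so their low Xist counts cannot be read against the higher Rlim in injured PT-KO kidneys. Zfp42, a known target of the ligase, was at or near 0 throughout. Across this list 5 of 12 tested genes (41.7%) were called between the injured groups, near the 46.9% of all genes.

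**Figure D5:**
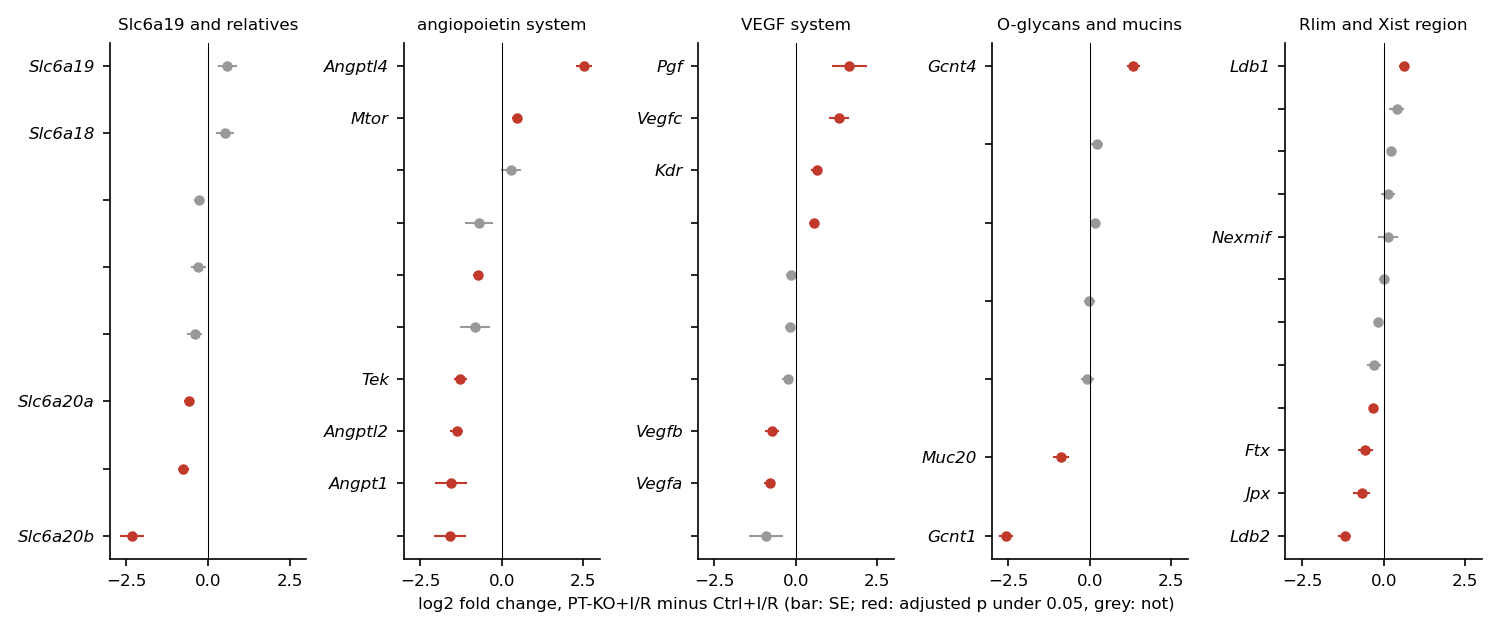
Log2 fold change of injured PT-KO kidneys over injured controls with SE for the tested genes of 5 lists of relatives and partners, red where the edgeR adjusted p was under 0.05 and named where the text describes the gene. Mtor, the host gene of Angptl7, is drawn with the angiopoietin system, and Angptl4 at 2.52 and Gcnt1 at -2.57 lie farthest from 0.

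The genes most like each of the 6 were named by Pearson correlation of log2 CPM over the 12 libraries, among 16167 genes. These values are a description: the injured PT-KO libraries lie apart from the other 9 for each of the 6 genes, so r describes that gap as well as any likeness within groups. Prok1 was most like B3galt5 (r = 0.99), a glycosyltransferase gene that went from 42.2 ± 7.54 CPM in injured controls to 4.201 ± 0.609 CPM in injured PT-KO kidneys, followed by Akr1e1 and F8, the gene of coagulation factor VIII. A4gnt was most like Ptcd3, a mitochondrial ribosome gene, Cldn10, a tight junction claudin, and D3Ertd751e. Angptl7 was most like Cpt1a (r = 0.97), the carnitine palmitoyltransferase of fatty acid oxidation, then Rffl and Abcd3, a peroxisomal transporter. The mean of Cpt1a was 531 ± 48.0 CPM (Ctrl), 697 ± 30.9 (PT-KO), 363 ± 61.1 (injured controls) and 991 ± 36.3 CPM (injured PT-KO kidneys), the same order of groups as Angptl7. Genes most like Ctxn3 included Rabggta (r = 0.98) and Otub1. Slc6a19os was most like Nrbp1, Med8 and U2af1, and Rlim most like Src, Ptpn11 and Taldo1, each with r = 0.99. Between the 6 genes themselves, r was 0.98 for Prok1 with A4gnt, 0.89 for Ctxn3 with Angptl7 and 0.70 for Slc6a19os with Angptl7.

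Cell type markers also moved with the injured PT-KO group. The summed level of 5 injured tubule markers was 576 to 2672 CPM in injured controls and 4762 to 6310 CPM in injured PT-KO kidneys, and 4 of the 5 rose while 1 fell. Among the 4, the call of Havcr1 was lost in 5 of 6 fits that each left out a library (edgeR adjusted p up to 0.149). Of 8 proximal tubule markers 3 fell between the injured groups and 1 rose, Kap, an androgen-regulated gene of the proximal tubule, whose call was lost without injured control library 1 or any injured PT-KO library (adjusted p up to 0.114). Of the 3 that fell, Slc34a1 overlapped between the groups, and its call was lost in 5 of 6 such fits (adjusted p up to 0.156). Kap carried most of the sum of the 8 markers, which was 11567 to 19596 CPM in injured controls and 16697 to 18336 CPM in injured PT-KO kidneys. The other 7 summed to 5802 ± 2559 CPM in injured controls and 2658 ± 343 CPM in injured PT-KO kidneys, against 13695 ± 1031 CPM in Ctrl, and the libraries of the injured groups did not overlap. Summed over 3 macrophage markers the level was 36.6 to 55.4 CPM in injured controls and 27.9 to 37.0 CPM in injured PT-KO kidneys, and the 3 markers split. Adgre1, which encodes F4/80, fell from 8.01 to 0.380 CPM (-4.37, SE 0.38, adjusted p = 2.5e-04) and C1qa from 21.6 to 6.96 CPM (-1.63, SE 0.24, adjusted p = 0.00154), whereas Cd68 rose from 15.5 to 26.0 CPM (0.76, SE 0.18, adjusted p = 0.0117). Neutrophil markers gave 5.30 to 24.4 CPM and 35.1 to 54.5 CPM in the same groups. Fibroblast markers gave 183 to 223 CPM and 62.9 to 98.5 CPM, with 1 of 3 called, lower. Erythroid markers gave 72.1 to 191 CPM and 36.9 to 42.5 CPM, with 3 of 3 called lower. Of 2 thick ascending limb markers Slc12a1 fell (-3.40, SE 0.76, edgeR adjusted p = 0.00824), and Umod did not pass (-0.10, adjusted p = 0.791). T cell and B cell markers lay at or under 0.320 CPM in injured PT-KO kidneys. Of 4 adrenal cortex markers 3 had 0 counts in that group, but also in PT-KO, and 2 had 0 counts in Ctrl and in injured controls. The fourth, Star, averaged 2.46 CPM in injured PT-KO kidneys, 1.86 in injured controls, 1.18 in PT-KO and 0.959 in Ctrl. It did not pass between the injured groups (0.44, edgeR adjusted p = 0.461). Against PT-KO it passed (1.11, adjusted p = 0.0455), though the libraries overlapped. The part of these shifts in the levels of the 6 genes was not tested.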

How the data were processed

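RNA was measured by bulk RNA-seq in 12 kidney libraries. The authors deposited 1 table of raw read counts per gene, neither normalized nor filtered. The submitters' processing notes name HISAT2 2.0.4 and mm10, and the counting program, annotation and strand setting are not given in the sources used here. For Ctrl library 3 only the column name gives the group. Gene names and positions come from GENCODE M21 (GRCm38), and promoters from RefSeq.

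The 6 genes and all gene lists were chosen with earlier results of these data known. Genes named are the 6, Gfer, genome neighbours, for each list the genes called in injured PT-KO kidneys against injured controls (the 5 with the largest absolute change where more were called), and the 3 genes most correlated with each of the 6. Others, such as Ctxn1, Slc6a18, Zfp42, the named markers and unread list genes, were named after their values were seen. Some genes that fall under this rule are not reported here.

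Counts were filtered with filterByExpr, scaled by TMM and compared by edgeR 4.0.16 in R 4.3.3 (glmQLFit, glmQLFTest), with 6 libraries per comparison. A gene passed when its Benjamini-Hochberg adjusted p was under 0.05. CPM uses TMM factors over 12 libraries. Correlations used a prior count of 2, and permutation tests (two-sided) log2 of CPM plus 0.5. Counting intervals are exact at 95%, and the floor is 3 counts. The test was checked on simulated data. Of 100 simulated 2-fold changes it found 60 in PT-KO against Ctrl and 40 in injured controls against Ctrl. It found 58 in injured PT-KO kidneys against injured controls and 71 against PT-KO. Of 100 4-fold changes it found 86 to 95, with 8 to 16 false calls over all genes. A gene that did not pass may therefore still differ. Alternatives were DESeq2 1.42.0, other scalings and filters, 1 fit to 12 libraries, the replicate number as a block, sex as a covariate and leaving out each library. Leaving out both Xist-carrying Ctrl libraries, or PT-KO library 2 in a joint fit, was chosen after seeing the data.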

Additional observations from a re-analysis of the deposited data

Results flagged for a closer look

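Angptl7 moved in opposite directions after I/R in the 2 genotypes. Every injured control library lay below every Ctrl library, with a difference of means of -6.37 CPM, and every injured PT-KO library lay above every PT-KO library, with a difference of 90.8 CPM. The difference between these 2 effects was not tested, because the injured PT-KO values, and likely those of injured controls, took part in the choice of the gene. Among the other 5 genes, the 62 listed relatives and the 16 genome neighbours none showed such a pattern. It was not particular to Angptl7: 258 of 16168 genes (1.6%) were lower after I/R in controls and were higher after I/R in PT-KO kidneys without overlap, and 310 (1.92%) went the opposite ways. The 3 genes most correlated with Angptl7, which were picked for likeness to it, were among the 258. Mean differences were -168.6 CPM in controls and 293.8 CPM in PT-KO kidneys for Cpt1a, -5.72 and 13.7 CPM for Rffl, and -147.5 and 248.5 CPM for Abcd3. Of 61 cell type markers, Alb, the albumin gene, did the same (-2.47 and 11.7 CPM), and Adgre1 did the reverse (4.29 and -3.03 CPM). None of these differences between effects was tested.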

How the results depend on the processing

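For the 6 genes, PT-KO against Ctrl gave 0 calls, but 1 with DESeq2, 1 with no low-count filter and 0 to 2 when a library was left out (2 without Ctrl library 3, Ctxn3 and Angptl7). Without Ctrl library 3 only Xist-carrying libraries are left in Ctrl, so in every such fit sex and condition cannot be told apart. Injured controls against Ctrl gave 1 call, but 2 with DESeq2, no filter or sex as a covariate, 3 in a fit to 12 libraries and 1 to 2 with a library left out. A4gnt in PT-KO against Ctrl, 0.06, turned to -0.054 with total count scaling, -0.23 with sex as a covariate, -0.24 without both Xist-carrying Ctrl libraries, a fit with 1 Ctrl library left, and lay between -0.048 and 0.23 with a library left out (lowest without Ctrl library 2). Ctxn3 in injured controls against Ctrl, 0.08, turned to -1.16 with sex as a covariate, -1.18 without both Xist-carrying libraries, -0.18 without injured control library 2, and lay between -0.32 (without Ctrl library 1 or 2) and 1.72 (without Ctrl library 3) with a library left out. The cause was not tested. In the comparisons with injured PT-KO kidneys, whose directions the choice of genes fixed, 4 of 168 alternative values moved by more than the spread. These were Slc6a19os against PT-KO, 7.59, which was 8.99 without PT-KO library 2 (9.004 in a joint fit to the other 11 libraries), and A4gnt, -7.65 against PT-KO and -6.30 against injured controls, which was -8.91 and -7.58 without injured PT-KO library 4.

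Of the relatives, PT-KO against Ctrl gave 0 calls, 5 with DESeq2, 4 with no filter and 0 to 13 with a library left out (13 without Ctrl library 3). Here too, fits without Ctrl library 3 cannot tell sex from condition. Injured controls against Ctrl gave 15, 8 without both Xist-carrying Ctrl libraries and 0 to 19 with a library left out, where it was 0 without Ctrl library 1 or 2, 7 without Ctrl library 3, and 2 and 4 without injured control library 1 or 2. Injured PT-KO kidneys against injured controls gave 24, and 17 to 28 with a library left out. The comparison with PT-KO gave 39, and 35 to 39 in all alternatives.

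Replicate numbers were checked for pairing. Over 12 pairs of libraries with the same number the residuals had a median correlation of -0.021 (from -0.189 to 0.184), with 1 pair over 0.1. Groups of 3 are too small for this check to exclude pairing, so what a shared number stands for is not known. The number of Ctrl library 3 is in doubt, since the labels number the Ctrl samples 1, 2 and 4; its correlation with the libraries numbered 4 was 0.077 (injured controls), -0.079 (PT-KO) and -0.018 (injured PT-KO kidneys). In the block fits a library without a partner had a block of its own and added nothing to the difference, so those with Ctrl rest on numbers 1 and 2. With the replicate block the counts of calls were 2 for the 6 genes and 7 for the relatives in PT-KO against Ctrl, 2 for the 6 genes in injured controls against Ctrl, and 6 for the relatives in injured PT-KO kidneys against injured controls. Over all genes, PT-KO against Ctrl gave 0 calls with edgeR, 458 with DESeq2 and 388 with no filter. Total count scaling moved the median of all genes by -0.12, 0.12, -0.21 and 0.04 for sham PT-KO against Ctrl, injured against sham controls, injured PT-KO against injured controls, and injured against sham PT-KO kidneys. Depth limits Slc6a19os in the sham groups and Prok1, A4gnt and Cym in injured PT-KO kidneys, which rest on 11 counts or fewer per group.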
